A study of Saccharomyces cerevisiae with 24 samples.

Results

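The transcripts that budding yeast gains and loses in the first 7.5 min of cadmium exposure are described here, by comparing RNA sampled at 7.5 min with RNA sampled at 0 min. The comparison covers the 5965 open reading frames (ORFs), of 6575 in the RNA table, that averaged 1 TPM or more across the 6 time points. TPM, a measure of transcript abundance, scales the reads of an ORF to its length and to a fixed column total. The change of an ORF is the difference of log2(TPM + 1) between the columns, and ORFs at 1 or more in either direction are called higher or lower. All samples were Saccharomyces cerevisiae W303, a laboratory strain of mating type MATa that carries the auxotrophic alleles ade2-1, ura3-1 and trp1-1 as well as the double alleles of leu2 (leu2-3 with leu2-112) and his3 (his3-11 with his3-15), and the resistance allele can1-100, grown in rich medium at 30C. The group at 0 min was taken with no cadmium (0 mM), and the group at 7.5 min from the same treatment after cadmium chloride had been added to 1 mM. The labels give 2 RNA samples and 2 MNase chromatin samples to each time point, but each deposited table has 1 column per time point with no replicate named. There is therefore no replicate error and no test, and errors marked ± are counting errors of the reads. No untreated sample at 7.5 min is among the groups, so the effect of cadmium and that of handling over this time cannot be told apart.

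Cadmium is a thiol-reactive metal. In yeast it is held by glutathione and moved into the vacuole as a glutathione complex, so the cell needs sulfur for its defence, and the genes of sulfate assimilation are switched on by the activator Met4 with its cofactors Cbf1, Met28, Met31 and Met32. Damaged proteins call on the heat shock factor Hsf1 and its chaperone genes, and genes of iron uptake answer to Aft1. Growth genes, among them those for ribosome assembly, G1 cyclins and histones, are commonly shut down when yeast meets a sudden stress.

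The labelled strain and the depth were examined first. Of the markers of MATa cells, BAR1, STE2, STE6 and MFA1 stood between 130.6 and 458.5 TPM at 0 min, while the alpha-cell genes STE3, MF(ALPHA)1 and MF(ALPHA)2 stood between 0.204 and 1.20 TPM. The 0 and 7.5 min RNA columns corresponded to 33946111 and 33829963 implied reads, and the median counting error of a change was 0.047. For a gene 1 kb long, 3 reads, taken as the floor, equalled 0.101 TPM at 0 min and 0.102 TPM at 7.5 min. The 610 ORFs under the filter reached at most 1.92 TPM at 7.5 min, and 186 of them were at 0 in both columns. Mean TPM was 1.002 for the ORF just inside the filter and 0.999 for the one just outside it.

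Rises were more numerous and much larger than falls. In all, 301 ORFs (5.05% of those compared) were past the threshold, of which 197 (3.3%) were higher and 104 (1.74%) were lower. The median change of the higher ORFs was 1.79, with 79 beyond 2 and 28 beyond 4. The lower ORFs had a median of -1.25, with 9 beyond -2 and 1 beyond -4. The higher ORFs together held 1.41% of all TPM at 0 min and 6.17% at 7.5 min, and the lower ones went from 1.59% to 0.562%. The medians moved on in the later columns, with that of the higher ORFs at 19.9, 128.8, 300.5, 363.7, 409.3 and 489.1 TPM at 0, 7.5, 15, 30, 60 and 120 min. For the lower ones it was 58.9, 21.7, 7.07, 7.74, 7.13 and 9.09 TPM. A counting error, which covers the sampling of reads alone, was available for the 188 higher and 83 lower ORFs with a RefSeq entry. Of these, 18 higher and 19 lower ORFs lay within 1 counting error of the threshold. The other 9 higher and 21 lower ORFs could not be judged in this way. The lower count also depended on the pseudocount, becoming 173 with 0.1 TPM and 60 with 5 TPM, while the higher count became 235 and 157. The median of all ORFs was -0.10, with 2163 above 0 and 3802 below, and this is the background against which small group medians are to be read. Likewise, list counts are to be read against the 3.3% of all ORFs higher and the 1.74% lower.

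**Figure D1:**
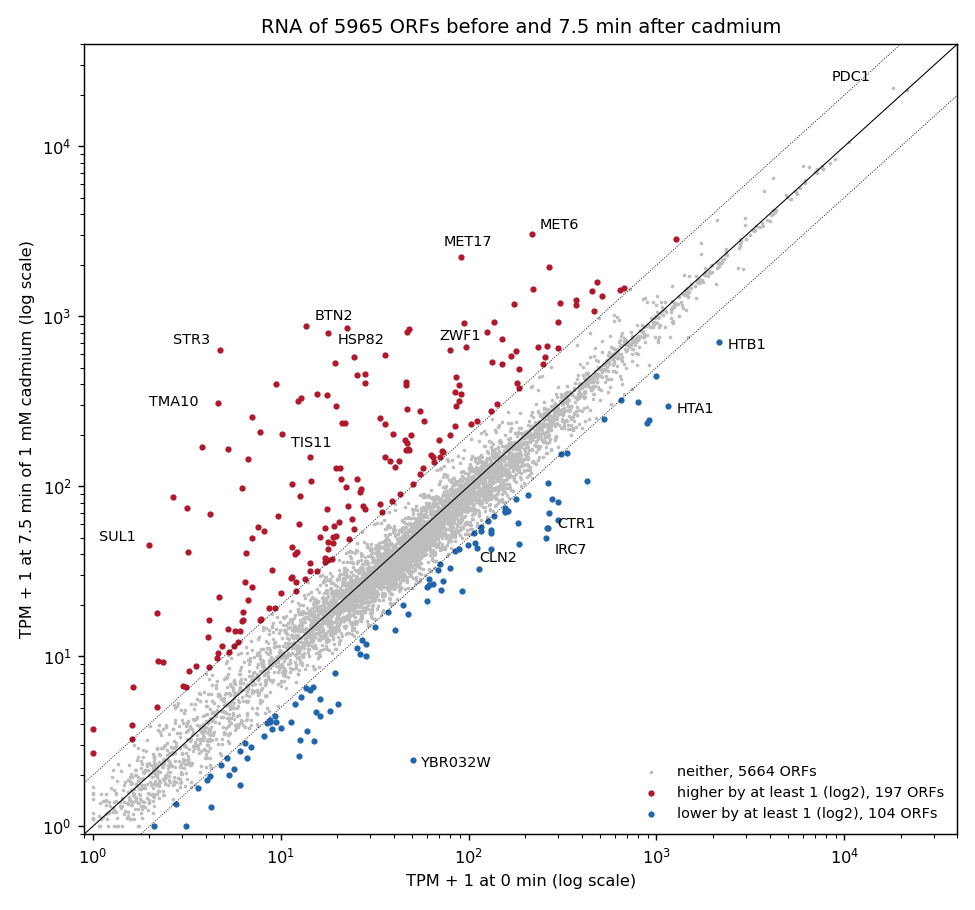
Each point is an ORF, with TPM + 1 at 0 min on the horizontal axis and at 7.5 min on the vertical axis (log scales, 1 column per time point); the solid line marks no change and the dotted lines a change of 1 on the log2 scale. The 197 higher ORFs (red) reach far from the diagonal, up to STR3, while the 104 lower ORFs (blue) stay close to it except for YBR032W.

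Sulfur genes made up the steepest rises. Of all ORFs, 3.3% were higher and 1.74% lower. Of 48 genes in 4 lists for sulfur metabolism and its regulators, 31 rose and none fell, with a median change of 2.39 against -0.10 for all ORFs. Their share of all TPM went from 0.650% to 2.39%. Of the 15 largest rises, taken where both columns averaged 10 TPM or more, 10 belong to these lists.

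Uptake and reduction of sulfate rose nearly as a whole, with 9 of 10 genes higher and a median of 4.14. The sulfate permease gene SUL1 went from 0.995 to 44.2 TPM, a change of 4.50 ± 0.09. SUL2, the second permease gene, went from 5.73 to 143.8 TPM (4.43 ± 0.06). Both started low, and SUL1 was far from its later height, since it stood at 843.7 TPM at 15 min and 3842 TPM at 60 min. The enzymes that activate sulfate were next. MET3, for ATP sulfurylase, went from 18.5 to 529.0 TPM (4.76 ± 0.05), and MET14, for adenylylsulfate kinase, from 21.5 to 854.4 TPM (5.25 ± 0.07). MET16, for the reductase that makes sulfite, went from 13.3 to 148.3 TPM (3.38 ± 0.08). The genes for the sulfite reductase subunits, MET5 and MET10, reached nearly equal levels from unequal starts, MET5 going from 27.1 to 403.5 TPM and MET10 from 45.6 to 407.8 TPM. Siroheme, the cofactor of that enzyme, needs MET1 and MET8, which went from 14.7 to 349.4 TPM and from 13.6 to 106.8 TPM. The exception was MET22, whose phosphatase clears a nucleotide by-product of the pathway. It had the highest level of the list at 0 min, 86.5 TPM, and stood at 149.0 TPM at 7.5 min, a change of 0.78 ± 0.03 that missed the threshold.

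Synthesis of homocysteine, cysteine and methionine was split by enzyme, with 9 of 15 genes higher. STR3 (YGL184C, chromosome VII, 154615 to 156012, minus strand, R64), for cystathionine beta-lyase, which turns cystathionine into homocysteine, had the largest rise of all ORFs. It went from 3.75 to 635.7 TPM, a ratio of 169.7 and a change of 7.07 ± 0.09. Its 7.5 min value was already close to the 540.7 and 634.3 TPM of the 15 and 30 min columns. STR3 was higher again later, at 984.3 TPM at 60 min and 1154 TPM at 120 min. STR2, for the preceding enzyme cystathionine gamma-synthase, stood at 25.9 and 24.1 TPM.

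The direct route from sulfide to methionine rose at each step. MET2, for homoserine acetyltransferase, went from 8.40 to 400.4 TPM (5.42 ± 0.07). MET17, for the enzyme that joins sulfide to acetylhomoserine, went from 90.6 to 2247 TPM (4.62 ± 0.02), though its coordinates overlap those of YLR302C. MET6, for methionine synthase, went from 217.3 to 3040 TPM (3.80 ± 0.01), the second-largest gain in TPM of any ORF. The route from homocysteine to cysteine was less marked: CYS3 went from 480.0 to 1582 TPM (1.72 ± 0.01) and CYS4 from 725.8 to 1440 TPM, a change of 0.99 ± 0.01 just under the threshold.

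Pairs of enzymes with the same reaction did not move alike. MET13, for the main methylenetetrahydrofolate reductase, went from 44.7 to 185.6 TPM, while MET12, for the other reductase, stood at 80.1 and 78.9 TPM. The S-adenosylmethionine synthetase genes both rose, SAM2 from 173.7 to 1177 TPM and SAM1 from 373.1 to 1166 TPM. They ended at nearly the same level, and since the 2 genes are close copies the division of reads between them is uncertain. Upstream in the aspartate pathway, HOM3, for aspartate kinase, went from 180.9 to 407.1 TPM (1.17 ± 0.02), while HOM2 stood at 728.4 and 809.3 TPM and HOM6 at 382.6 and 449.7 TPM. SAH1, for the hydrolase that regenerates homocysteine, stood at 1076 and 1016 TPM.

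Regulators of these genes showed a sharp division, with 3 of 10 higher and 7 past the threshold in neither direction. MET28 (chromosome IX, 383556 to 384119, minus strand), for a cofactor of Met4, went from 5.99 to 253.6 TPM (5.19 ± 0.13). MET32 (chromosome IV, 963990 to 964565, minus strand), for the zinc finger protein that brings Met4 to DNA, went from 4.22 to 165.2 TPM (4.99 ± 0.14). Its close relative MET31 stood at 52.0 and 40.1 TPM (-0.37 ± 0.07), so MET32 went from the lower to the higher of the pair. MET30, for the F-box protein that ubiquitinates Met4, went from 64.7 to 137.8 TPM (1.08 ± 0.03). The activator gene MET4 itself stood at 83.1 and 79.0 TPM, and CBF1, for its DNA-binding partner, at 87.2 and 89.2 TPM. MET28 stayed level after 7.5 min, at 252.7 TPM at 15 min and 234.7 TPM at 120 min, while MET30 went on to 861.8 TPM at 120 min.

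Genes that bring in or reuse organic sulfur rose in 10 of 13 cases (9 with a pseudocount of 5 TPM), with a median of 2.81. The methionine permease genes MUP1 and MUP3 went from 265.4 to 1959 TPM (2.88 ± 0.01) and from 6.71 to 207.8 TPM (4.76 ± 0.07). SEO1, for a putative permease, went from 2.83 to 170.5 TPM (5.49 ± 0.09). MMP1, for the S-methylmethionine permease, went from 34.8 to 588.2 TPM, and SAM3, for the S-adenosylmethionine permease, from 96.3 to 663.2 TPM. The enzymes that use these methyl donors to make methionine differed, as MHT1 went from 11.3 to 316.5 TPM (4.69 ± 0.07) while SAM4 stood at 313.4 and 279.1 TPM. MHT1 thereby reached the level at which SAM4 already stood. YCT1, for a cysteine transporter, went from 10.4 to 102.6 TPM, OPT1, for a transporter of glutathione and oligopeptides, from 149.7 to 526.0 TPM, and AGP3, for an amino acid permease, from 6.07 to 48.5 TPM. Genes for sulfonate and sulfate ester use were slow. BDS1, for a sulfatase, went from 11.1 to 26.4 TPM, JLP1, for a sulfonate dioxygenase, stood at 3.35 and 2.44 TPM, and SOA1, for a sulfur compound transporter, at 3.22 and 3.92 TPM. JLP1 stood at 380.1 TPM at 60 min and 4791 TPM at 120 min, so its level at 7.5 min came before that rise.

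**Figure D2:**
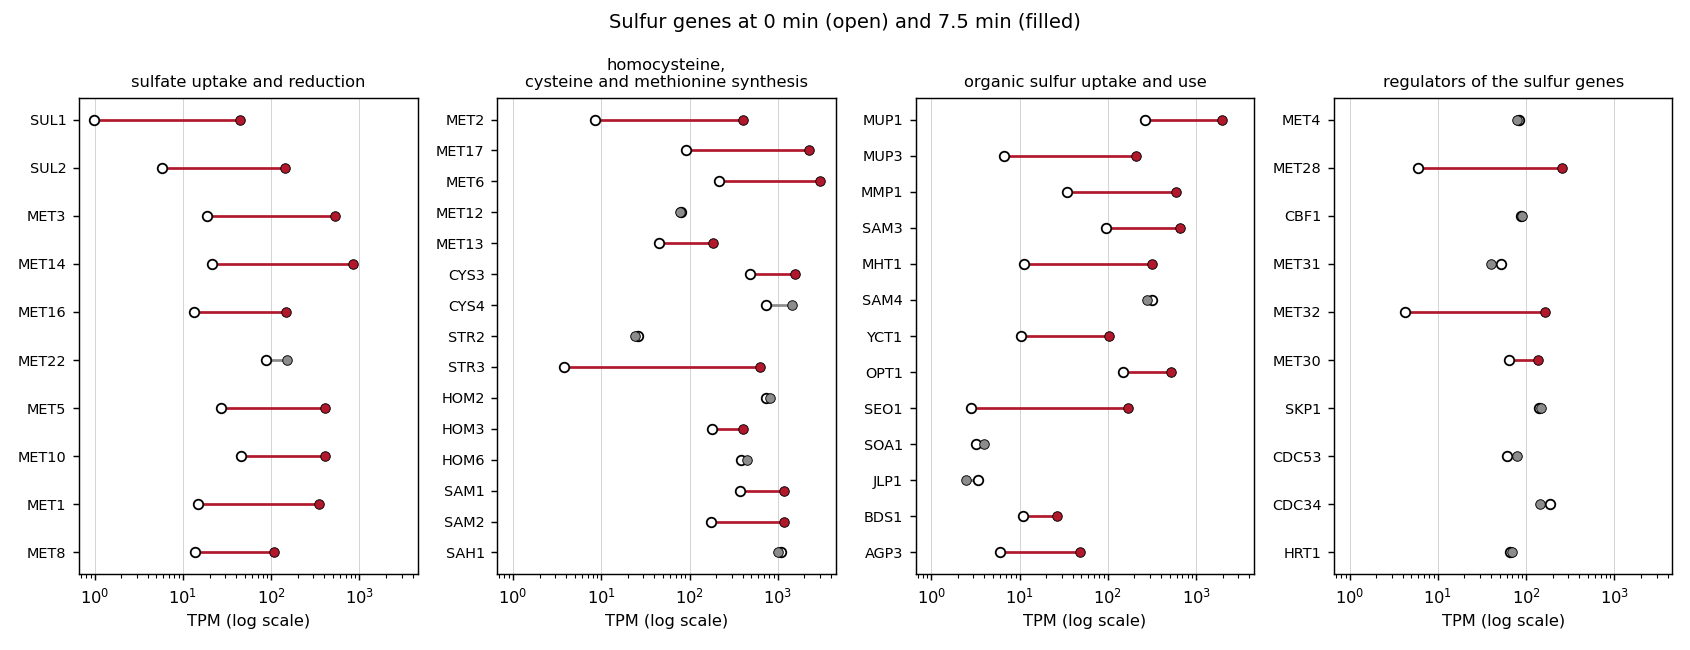
TPM on a log scale at 0 min (open circles) and 7.5 min (filled circles; red where the change reached 1 on the log2 scale, grey otherwise) for the 48 sulfur genes in 4 panels. SUL1, STR3, MET28 and MET32 start low and cross much of the axis, while MET4, CBF1, MET12, STR2 and SAH1 keep both circles together.

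Genes of sulfur compounds outside these lists went both ways. IRC7 (YFR055W, chromosome VI, 264204 to 265226, plus strand), for a beta-lyase that splits cysteine, had the second-largest fall among ORFs that averaged 10 TPM or more, from 256.7 to 48.7 TPM (-2.37 ± 0.04). SSU1, for the sulfite export pump, fell from 25.3 to 9.31 TPM (-1.35). MXR1, for a methionine sulfoxide reductase, rose from 45.8 to 806.8 TPM (4.11 ± 0.05), and ADI1, for an enzyme of methionine salvage, from 84.4 to 441.0 TPM (2.37 ± 0.04). These 4 are single genes and make no list, so no count is given for them.

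Glutathione genes were higher in 3 of 13 cases, against 3.3% of all ORFs. GSH1, for the rate-limiting enzyme of glutathione synthesis, went from 45.2 to 163.4 TPM (1.83 ± 0.03), while GSH2, for the second step, stood at 81.1 and 94.1 TPM. The largest rise in the list was in glutathione breakdown, where DUG3 went from 45.7 to 392.2 TPM (3.07 ± 0.04) and its partner DUG2 from 46.6 to 165.9 TPM (1.81 ± 0.03). DUG1, for the peptidase that finishes the breakdown, stood at 252.3 and 283.1 TPM. YCF1, for the vacuolar pump of the cadmium-glutathione complex, stood at 122.0 and 130.2 TPM (0.09 ± 0.02), and VMR1, for a related pump, at 15.7 and 29.0 TPM (0.85 ± 0.04). GEX1 was under the filter.

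Chaperone genes rose in 21 of 26 cases, with a median of 2.03, and all 26 had a change above 0. BTN2 (YGR142W, chromosome VII, 772454 to 773686, plus strand), for a factor that sorts misfolded proteins, went from 12.6 to 881.3 TPM (6.02 ± 0.06). CUR1, for a related sorting factor, went from 16.7 to 342.6 TPM (4.28 ± 0.07). The Hsp90 gene HSP82 (YPL240C, chromosome XVI, 96496 to 98625, minus strand) went from 16.9 to 799.8 TPM (5.48 ± 0.04). Its constitutive copy HSC82 went from 452.7 to 1418 TPM (1.64 ± 0.01), and how reads shared by these close copies were divided is not stated.

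Most classes of chaperone took part. Of the Hsp70 genes, SSA1 went from 23.4 to 573.3 TPM (4.56 ± 0.04) and SSA2 from 304.6 to 1202 TPM, while SSA3 stood at 21.2 and 25.2 TPM. The small heat shock gene HSP42 went from 11.7 to 329.2 TPM (4.70 ± 0.07), but HSP26 stood at 5.92 and 6.27 TPM and was at 316.4 TPM at 15 min. HSP104, for the disaggregase, went from 27.0 to 457.7 TPM, and HSP78, its mitochondrial counterpart, from 5.24 to 96.2 TPM. Mitochondrial HSP60 and HSP10 went from 233.2 to 662.3 TPM and from 298.1 to 652.2 TPM. HSF1, the gene of the heat shock factor, stood at 45.5 and 53.2 TPM.

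Of the general stress genes, which answer to Msn2 and Msn4, 2 of 20 were higher, against 3.3% of all ORFs. A change above 0 was seen in 15 of the 20, against 2163 of all 5965 ORFs. TMA10, for a ribosome-associated protein, went from 3.63 to 308.9 TPM (6.07 ± 0.22), the second-largest rise of all, and HXK1, for a hexokinase, from 7.70 to 18.2 TPM (1.14 ± 0.09), which became 0.87 with a pseudocount of 5 TPM. The other 18 of the 20 genes missed the threshold, and without TMA10 the median of the list was 0.12. GLK1, for glucokinase, stood at 19.4 and 35.7 TPM, and USV1, for a transcription factor, at 3.17 and 6.32 TPM. HSP12, a standard member, stood at 9.63 and 10.4 TPM.

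Proteasome genes differed between the regulator and the subunits. RPN4, the gene of their transcription factor, went from 84.7 to 297.5 TPM (1.80 ± 0.03). None of the 33 subunit genes passed the threshold, but all 33 had a change above 0, between 0.05 and 0.46 with a median of 0.29. PRE4, the highest of them, stood at 131.0 and 180.7 TPM. In the next columns PRE4 stood at 439.5 TPM at 15 min and 798.2 TPM at 30 min.

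In the endoplasmic reticulum, 2 of 14 folding genes rose, against 3.3% of all ORFs. The list median was -0.10, as for all ORFs. KAR2, for the Hsp70 of that compartment, went from 299.0 to 920.9 TPM (1.62 ± 0.01) and ERO1, for the oxidase of disulfide formation, from 101.7 to 232.0 TPM (1.18 ± 0.02). HRD1, for a ubiquitin ligase, stood at 29.1 and 39.2 TPM and SIL1, for an exchange factor of Kar2, at 54.4 and 41.0 TPM.

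**Figure D3:**
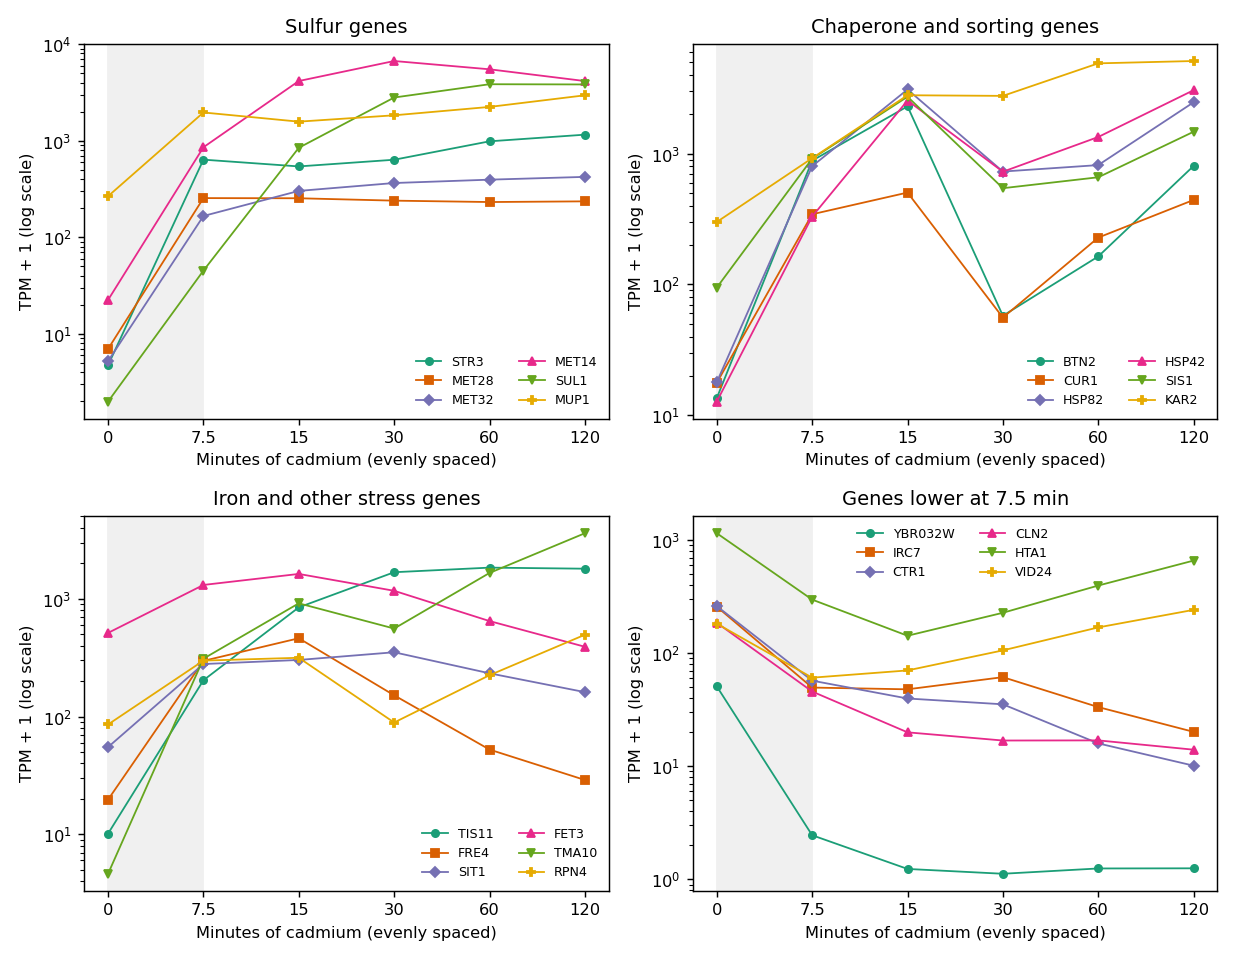
TPM + 1 on a log scale over the 6 columns (minutes of cadmium, evenly spaced) for genes named in the text, with the step from 0 to 7.5 min shaded. STR3 and MET28 are near their 15 min values by 7.5 min, SUL1 and MET14 go on upwards, and BTN2 and CUR1 stand far lower at 30 min than at 15 min.

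Oxidant defence genes, many of them targets of the transcription factor Yap1, were higher in 3 of 28 cases, against 3.3% of all ORFs. AHP1, for a peroxiredoxin, went from 135.6 to 926.4 TPM (2.76 ± 0.03), and HBN1, for a nitroreductase-like protein, from 6.56 to 56.4 TPM (2.92 ± 0.13). GRE2, for a reductase of methylglyoxal, went from 10.4 to 27.9 TPM (1.34 ± 0.09). CAD1, for the Yap-family factor named after cadmium resistance, stood at 34.5 and 62.5 TPM (0.84 ± 0.05). The thioredoxin system genes TRX2 and TRR1 and the peroxiredoxin gene TSA1 stood at 76.4 and 89.1 TPM, 295.7 and 253.8 TPM, and 513.4 and 618.8 TPM. The list as a whole had a median of 0.18.

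Iron uptake genes rose in 16 of 25 cases (13 with a pseudocount of 5 TPM), with a median of 1.16. TIS11 (also CTH2), for a protein that destroys mRNAs of iron-using enzymes, went from 9.14 to 202.3 TPM (4.33 ± 0.09). The reductase genes FRE4 and FRE5 went from 18.7 to 296.0 TPM (3.91 ± 0.04) and from 1.20 to 16.9 TPM (3.03 ± 0.10), and CCC2, for the pump that supplies copper to Fet3, from 19.7 to 128.0 TPM (2.64 ± 0.04). These were the 4 largest changes of the list. FET3, for the iron oxidase and the most abundant member at 0 min, went from 512.2 to 1309 TPM (1.35), and SIT1, for a siderophore transporter, from 54.0 to 278.2 TPM (2.34). AFT1, for the iron regulator, stood at 81.0 and 142.4 TPM (0.81), and FIT1 at 5.69 and 5.61 TPM.

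Genes of copper and zinc handling went both ways, with 2 of 17 higher and 2 lower. CTR1 (YPR124W, chromosome XVI, 786208 to 787428, plus strand), for the high-affinity copper transporter, fell from 259.6 to 56.2 TPM (-2.19 ± 0.03), and IZH1, for a membrane protein of zinc metabolism, from 298.8 to 79.4 TPM (-1.90 ± 0.03). PCA1, for a metal-transporting ATPase, went from 16.9 to 41.8 TPM (1.25 ± 0.04), and COT1, for a vacuolar transporter of zinc and cobalt, from 71.7 to 157.6 TPM (1.13 ± 0.03). In a list of 6 genes for copper uptake under the regulator Mac1, added after the values were seen, CTR1, FRE7 and CTR3 fell. FRE7, for a reductase, went from 17.2 to 3.76 TPM (-1.94 ± 0.09) and CTR3, for another copper transporter, from 7.45 to 3.04 TPM (-1.06 ± 0.17), while FRE1 stood at 299.4 and 381.8 TPM and MAC1 at 33.1 and 26.5 TPM. CTR3 went under the threshold with a pseudocount of 5 TPM (-0.63) and with the columns rescaled by their median ratio (-0.98). The metallothionein genes CUP1-1 and CUP1-2, near-identical copies, are listed at 0 in both columns, so nothing is said of them.

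Drug efflux genes were past the threshold upwards in 4 of 16 cases and downwards in 1, with a median of 0.60. Of all ORFs, 3.3% were higher and 1.74% lower. PDR5, for the main multidrug ABC transporter, went from 373.2 to 1238 TPM (1.73 ± 0.01), SNQ2, for another, from 141.2 to 302.9 TPM (1.10 ± 0.01), and RSB1, for a sphingoid base transporter, from 3.17 to 15.4 TPM (1.97 ± 0.13). TPO2, for a polyamine exporter, fell from 36.4 to 17.2 TPM (-1.04 ± 0.05), a call that ended with a pseudocount of 5 TPM (-0.90) and on rescaling (-0.94). The phosphate list had 4 of 14 higher, led by PHO89, for a sodium-phosphate transporter, from 24.4 to 451.6 TPM (4.16 ± 0.04), and PHO4, for the activator of the list, from 79.0 to 200.7 TPM (1.33 ± 0.04). PHO11 and PHO12, near-identical phosphatase genes, had changes of 1.04 and 1.02, which became 0.70 and 0.95 with a pseudocount of 5 TPM. PHO84, for the main phosphate transporter, was among the largest losses in TPM, at 2718 and 1936 TPM, though its change of -0.49 missed the threshold.

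The largest gains in TPM were not always large fold changes. Among the 8 largest gains, MET6, MET17 and MUP1 had changes of 3.80, 4.62 and 2.88. The rest missed the threshold. PDC1, for pyruvate decarboxylase and the most abundant of the 8 genes with the largest gains, stood at 18102 and 22011 TPM with a change of 0.28. TDH3, ENO2, FBA1 and GPM1, for glycolytic enzymes, gained between 1616 and 2318 TPM each with changes between 0.35 and 0.83. Of 21 genes of glycolysis and fermentation, a list added after the values were seen, 19 had a change above 0 and 2 passed the threshold, and the list went from 5.19% to 6.85% of all TPM. ENO1 went from 184.1 to 491.8 TPM (1.41 ± 0.02) and PGK1 from 1271 to 2866 TPM (1.17 ± 0.01).

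Histone genes were the clearest falls among the lists, with 6 of 10 lower. HTA1 and HTB1, for H2A and H2B at 1 locus, fell from 1149 to 296.6 TPM (-1.95 ± 0.03) and from 2146 to 702.8 TPM (-1.61 ± 0.02). HTB1 had the largest loss in TPM of any ORF. HHT1 and HHF1, for H3 and H4, fell from 910.6 to 244.0 TPM (-1.90 ± 0.03) and from 893.5 to 233.9 TPM (-1.93 ± 0.03). The second copies moved less: HHF2 and HTB2 fell, with changes of -1.15 and -1.33, while HTA2 and HHT2 had changes of -0.98 and -0.97. The medians were -1.91 for the 4 first copies and -1.07 for the 4 second copies, and reads shared by copies leave this difference uncertain. HTZ1, for the variant H2A.Z, and HHO1, for the linker histone, stood at 136.4 and 118.3 TPM and at 137.1 and 134.0 TPM.

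Cyclins and cell cycle regulators were all below 0, and 5 of 17 fell, with a median of -0.64. CLN2 (YPL256C, chromosome XVI, 64977 to 66614, minus strand), for a G1 cyclin, fell from 184.8 to 44.8 TPM (-2.02 ± 0.03). PCL1, for another G1 cyclin, fell from 130.5 to 41.6 TPM (-1.62 ± 0.05), and CLN1 from 130.8 to 51.9 TPM (-1.32 ± 0.03). Falls were not limited to G1 genes, since CLB5, for an S-phase cyclin, fell from 58.9 to 24.6 TPM and CLB1, for a mitotic cyclin, from 160.4 to 70.4 TPM. CLN3, for the upstream G1 cyclin, stood at 252.1 and 202.7 TPM (-0.31). YOX1, for a repressor of cell cycle genes, fell from 91.7 to 23.2 TPM (-1.94 ± 0.06).

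Ribosome assembly genes moved together by small amounts. All 95 had a change below 0, 6 of them fell, and the median was -0.54. Within this list the largest falls were those of DBP7, from 130.2 to 54.5 TPM (-1.24 ± 0.03), NOG2, from 331.5 to 155.0 TPM (-1.09 ± 0.02), DBP2, from 522.2 to 246.4 TPM (-1.08 ± 0.01), and DBP8, from 155.6 to 73.1 TPM (-1.08 ± 0.03). DBP7, DBP2 and DBP8 are RNA helicases and NOG2 a GTPase of the large subunit. The list does not hold every assembly gene, and FAL1 and RSA4 outside it fell by more than NOG2, with changes of -1.27 and -1.16. NOG2, DBP2 and DBP8 went under the threshold when the columns were rescaled by their median ratio, with changes of -0.99, -0.98 and -0.98, and 1 of the 95 then stayed past it, against 4 with a pseudocount of 5 TPM. The RNA at 15 min was lower again, with DBP7 at 3.75 TPM and NOG2 at 19.2 TPM.

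The polymerase I and III genes upstream followed the same direction. All 20 genes of RNA polymerase I and III had a change below 0, with a median of -0.32 and 1 past the threshold, RRN3, for the factor that activates polymerase I, from 106.1 to 51.9 TPM (-1.02 ± 0.03). RRN3 went under the threshold with a pseudocount of 5 TPM (-0.97) and on rescaling (-0.92), which leaves the list with none past it. In a list of 9 polymerase I initiation factors, added after the values were seen, RRN7 and RRN11, for core factor subunits, also fell, with changes of -1.41 and -1.40. Of 10 regulators of ribosomal genes, 7 had a change below 0, close to the share over all ORFs (3802 of 5965). The other 3 were above 0, up to 0.40. Among the 10 regulators, 1 passed the threshold. That was IFH1, for the coactivator of ribosomal protein genes, which fell from 106.6 to 45.6 TPM (-1.21 ± 0.03). Its partner FHL1 stood at 66.4 and 35.4 TPM (-0.89 ± 0.03). The 137 cytosolic ribosomal protein genes had no member past the threshold, at 30.1% and 28.9% of all TPM. Their median of -0.06 became 0.04 after rescaling, so it has no determined direction.

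Of the metabolic lists, few members were past the threshold, as over all ORFs, where 3.3% were higher and 1.74% lower. FUR4, for the uracil permease, fell from 63.7 to 25.5 TPM (-1.29 ± 0.04) as the sole member of 36 genes of purine, pyrimidine and one-carbon metabolism to do so. HXT4, for a hexose transporter, fell from 262.4 to 104.0 TPM (-1.33 ± 0.02), the sole one of 15 in its list. SER33, for an enzyme of serine synthesis, went from 88.0 to 394.5 TPM (2.15 ± 0.03), while its near relative SER3 stood at 52.3 and 34.0 TPM and the other 30 genes of the amino acid list missed the threshold. ILV5, for a valine and isoleucine synthesis enzyme, was among the largest losses in TPM, at 2873 and 1898 TPM, with a change of -0.60. None of 22 ergosterol genes passed, the lowest being ERG5 at 402.2 and 218.3 TPM (-0.88 ± 0.02).

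**Figure D4:**
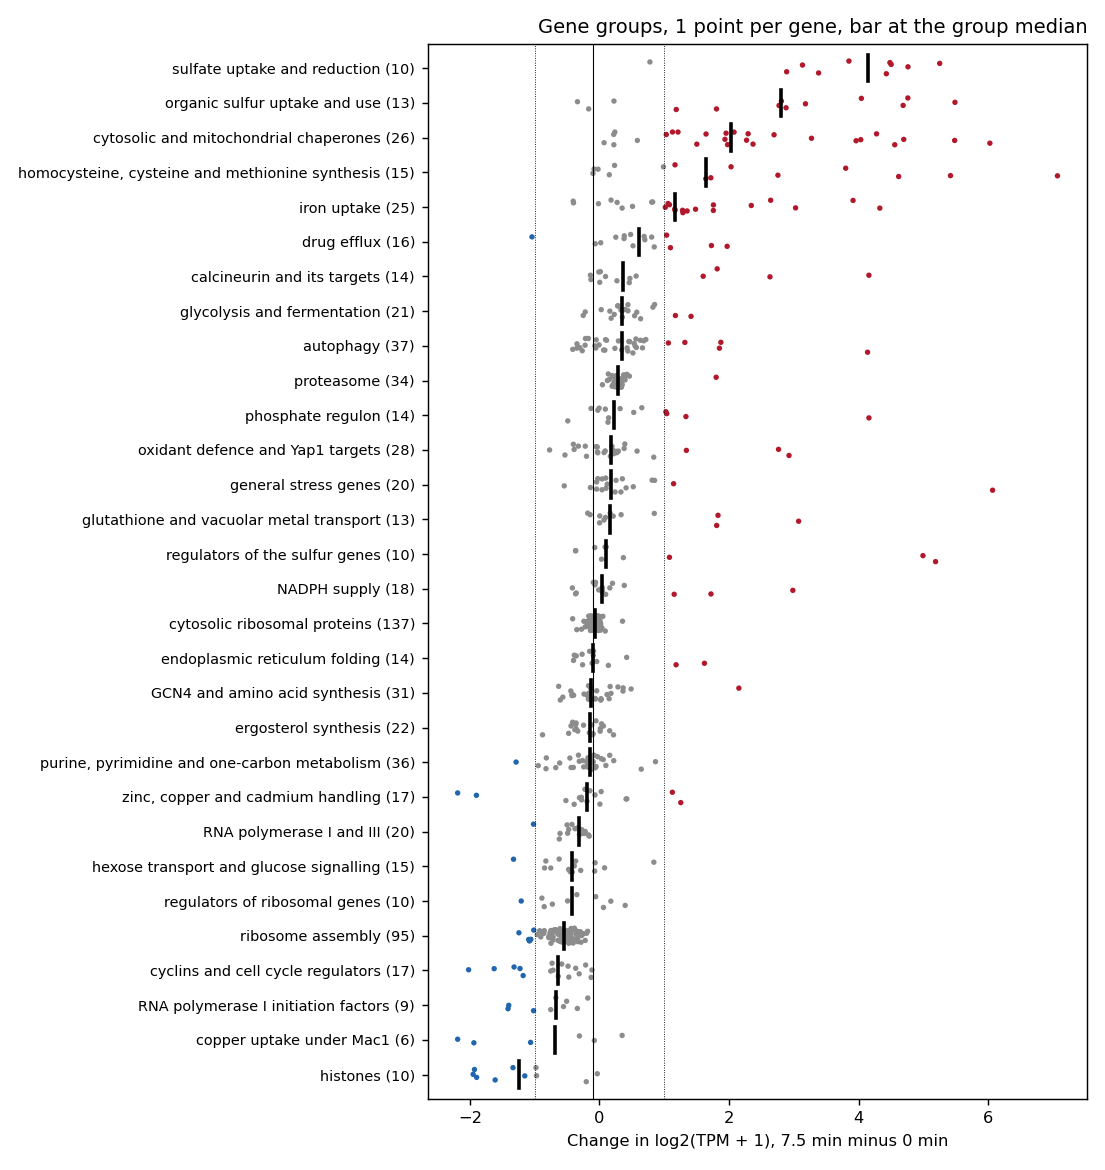
Change in log2(TPM + 1) from 0 to 7.5 min for each gene of 30 lists (number of genes in parentheses), with a bar at the list median, a solid line at the median of all ORFs (-0.10) and dotted lines at the threshold of 1 in either direction. The chaperone list, the iron list and 3 of the 4 sulfur lists have their medians beyond 1, the sulfur regulators stand at 0.10, histones have their median beyond -1, and ribosome assembly genes form a narrow cluster at -0.54.

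The largest falls included genes outside every list. YBR032W (chromosome II, 301519 to 301821, plus strand), an ORF without a gene name in the table, fell from 49.9 to 1.46 TPM (-4.37 ± 0.25), to 0.238 TPM at 15 min, and was the only fall beyond -4. PRM7 and BSC1, neighbours on chromosome IV separated by 519 bases, fell from 299.5 to 62.5 TPM (-2.24 ± 0.03) and from 427.3 to 106.0 TPM. YKR075C and YGR079W, also without names, fell from 264.4 to 55.8 TPM and from 266.6 to 68.8 TPM. All of these stood at levels of expressed genes before cadmium. LEE1, for a zinc finger protein, was the one gene outside the lists among the 15 largest rises, from 1.68 to 85.3 TPM (5.01 ± 0.14). Of the 104 lower ORFs, 21 have no entry in the RefSeq table, against 9 of the 197 higher ones and 304 of the 5664 others.

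Some changed genes lie side by side. Among 5615 pairs of neighbouring genes, 20 had both members higher, 10 of them transcribed away from each other, and 3 had both lower. For comparison, 188 of the 5631 ORFs in these pairs were higher, and 25.8% of all the pairs are transcribed away from each other. Whether higher ORFs adjoin more often than their share gives was not tested. MHT1 and MMP1 are divergent genes 342 bases apart on chromosome XII, with changes of 4.69 and 4.04. On chromosome II, SUL1, PCA1 and PHO89 follow each other, with changes of 4.50, 1.25 and 4.16. FIT2, FIT3 and FRE5, all iron genes, form another run of 3 on chromosome XV, with 1.29, 1.02 and 3.03. BDS1, YOL163W and YOL162W form a run on the same chromosome, with 1.18, 4.56 and 3.69. On chromosome IX, MET28, YAP5 and the weakly expressed YIR018C-A form a run, with 5.19, 1.84 and 2.08. In some pairs transcribed away from each other, a steep rise adjoins a smaller one. These include MET28 with YAP5 (5.19 and 1.84), MET32 with CHL4 (4.99 and 1.31), MET6 with IES5 (3.80 and 1.88) and SIS1 with LST8 (3.27 and 1.67). The lower pairs were HHF1 with HHT1, HTB1 with HTA1, and PRM7 with BSC1. Whether reads running past a gene's end add to its neighbour was not tested.

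Some genes given above fall outside the rule by which genes were named, and were picked after their values were seen. These are the mating-type markers, SSU1, MXR1, ADI1, GSH2, DUG1, YCF1, GEX1, CUR1, HSC82, SSA2, SSA3, HSP26, HSP104, HSP78, HSP60, HSP10, HSF1, HSP12, TRX2, TRR1, TSA1, FET3, SIT1, AFT1, FIT1, MAC1, CUP1-1, CUP1-2, FAL1, RSA4, HTB2, HTA2, HTZ1, HHO1, CLB1, CLN3 and the members of the neighbouring pairs that no list names.

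Chromatin at the same genes was measured independently of the RNA, by digestion with micrococcal nuclease (MNase), which cleaves exposed DNA. Small fragments over promoters mark DNA held by complexes smaller than nucleosomes, and the entropy score of a gene body is higher where nucleosomes are less regular. Both tables cover 4423 of the compared ORFs, including 141 of the higher and 50 of the lower ones. The difference between columns is taken as log2(count + 63) for fragments, which totalled 713795 and 653634 in the columns, and as a plain difference for entropy. Against medians of -0.09 for fragments and -0.044 for entropy over all promoters and gene bodies, the higher ORFs had 0.09 and 0.130, and the lower ORFs -0.20 and -0.093. Fragments were above their 0 min value at 91 of the 141 higher ORFs (64.5%), 10 of the 50 lower ones (20%) and 27.6% of all promoters. Entropy was above its 0 min value at 117 of the 141 (83.0%), at 7 of the 50 (14%) and at 25.1% of all gene bodies.

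Both measures went with the size of the RNA change among the higher ORFs. Median fragment changes were 0.03 for the 78 ORFs with RNA changes from 1 to 2, 0.16 for the 43 from 2 to 4, and 0.39 for the 20 at 4 or above. Median entropy changes were 0.084, 0.205 and 0.303 in the same order. At 4 or above, 19 of the 20 gene bodies had higher entropy. Among the lower ORFs, the 4 with RNA changes of -2 or below all had fewer fragments, with a median of -0.51. Entropy was above its 0 min value at 2 of the 4, by 0.145 at CTR1 but by only 0.001 at YKR075C.

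**Figure D5:**
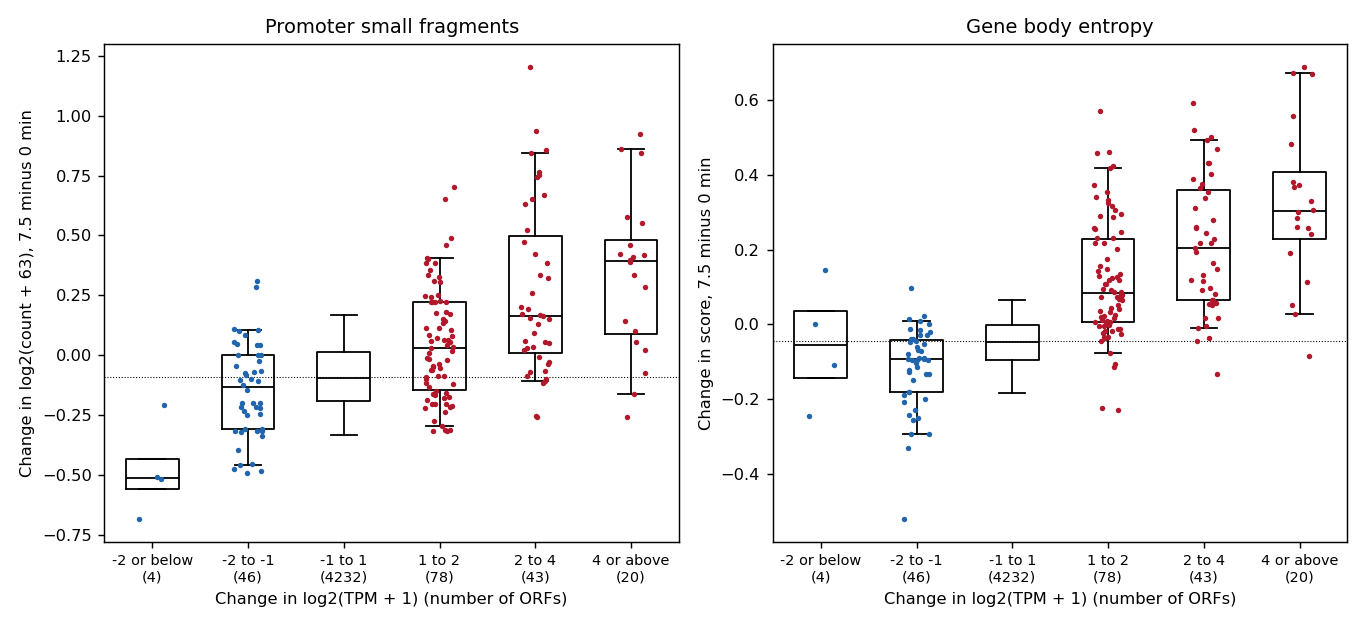
Change from 0 to 7.5 min in promoter small fragments (left, log2 of count + 63) and gene body entropy (right, score) for ORFs grouped by their RNA change, with the number of ORFs in parentheses; boxes span the quartiles with a line at the median, whiskers the 5th to 95th percentile, points are called ORFs, and the dotted line is the median of all. Medians climb from 0.03 to 0.39 for fragments and from 0.084 to 0.303 for entropy across the groups of higher ORFs, with wide overlap between groups.

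Single genes show how loosely the measures are joined. At HSP82 both moved, with fragments from 113 to 253 (0.84 ± 0.11) and entropy from 6.25 to 6.94. MET5, MET16 and SUL2 had fragment rises of 1.20, 0.94 and 0.92, from 52 to 202, from 31 to 117 and from 52 to 155 fragments. MET3 had about as many fragments at both times, 371 and 378, while its entropy went from 6.60 to 6.97. MET32 had 222 and 208 fragments and entropy of 6.34 and 7.01. SUL1, with a change of 4.50 in RNA, had 182 and 142 fragments, a change of -0.26 ± 0.12 against -0.09 over all promoters. At MET2 fragments went from 211 to 298 and entropy from 7.03 to 6.94. Among the falls, CLN2 went from 112 to 46 fragments (-0.68 ± 0.13) and IRC7 from 129 to 72, with entropy from 7.06 to 6.82 at IRC7. CTR1 went from 242 to 150 fragments, yet its entropy went from 6.88 to 7.02. FRE7 had 35 fragments at both times. The ribosome assembly genes, whose RNA moved by only -0.54, had lower entropy in 88 of 89 gene bodies, with a median of -0.167. The ribosomal protein genes had it in 107 of 110, with a median of -0.162. Over all compared ORFs, 3284 of 4423 gene bodies had lower entropy, with a median of -0.044.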

How the data were processed

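The series holds 12 RNA and 12 MNase samples. The authors' deposited tables give, per the file headers, 1 column per time point and no replicate, and whether a column joins both samples is not stated. TPM values were deposited for 6575 ORFs, whole-number counts of small promoter fragments for 4427 ORFs, and an entropy score per gene body for the same 4427. Bowtie 0.12.7 and the builds sacCer3 and R64 are named per the submitters' processing notes. Strand use, multi-mapped reads, fragment lengths and windows are not given in the sources used here, so close gene copies and overlapping genes are uncertain.

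Columns 0 and 7.5 were compared as differences of log2(TPM + 1), which understates changes of weakly expressed genes. Symbols and coordinates came from RefSeq (R64) for 5900 ORFs (89.7%). TPM times length was a whole multiple of 1 step within 0.02 read for 99.5% of matched ORFs, and these implied reads served for counting errors and floors only, which cover sampling and no biological or library variation. No test was made. The ORFs and 24 gene lists were chosen with earlier results of these data known, and 6 lists were added after the values were seen. Genes named were the 15 largest rises and 15 largest falls where both columns averaged 10 TPM or more, the 8 largest gains and 8 largest losses in TPM, the 4 largest changes of each list and all sulfur genes; others are said to be named after their values were seen. The arithmetic was tested on simulated data. Alternatives were pseudocounts of 0.1 and 5 TPM, no filter or 10 TPM, rescaling by the median ratio, and ORFs in RefSeq or overlapping no other gene. Python 3.11.15, numpy 2.4.6, pandas 2.3.3 and matplotlib 3.10.9 were used.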

Additional observations from a re-analysis of the deposited data

How the results depend on the processing

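Of 928 values of 134 named genes under these alternatives, 914 kept direction and side of the threshold, 14 went under the threshold and none reversed. These 134 do not hold every gene named above. With a pseudocount of 5 TPM the higher counts became 13 of 25 for iron uptake, 9 of 13 for organic sulfur and 3 of 16 for drug efflux. Of the 134, HXK1, TPO2, RRN3, PHO11, PHO12, SOL1, CTR3 and ATG8 went under the threshold with a pseudocount of 5 TPM. With columns rescaled by their median ratio, TPO2, DBP2, DBP8, NOG2, RRN3 and CTR3 did. The 104 lower ORFs became 173 with a pseudocount of 0.1 TPM, 60 with 5 TPM and 64 with a filter of 10 TPM, which tests fewer weak ORFs. The 197 higher ORFs ranged from 157 to 235. Rescaling set the median of all ORFs to -8.05e-05, as its construction does. The promoter median of lower ORFs was -0.51 at an RNA threshold of 2. Of the entropy medians, that of unchanged ORFs became 0.002 with centred columns. No paired analysis was possible because the columns carry no replicate. The planned motif counts and their alternatives were not run. With 1 column per time point, no difference has a replicate check, and weak ORFs are limited by the floor of 3 reads.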

Other observations

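Further groups, chosen after their values were seen, held early rises, and their counts stand beside 3.3% of all ORFs higher. Of 18 genes that supply NADPH, ZWF1, for glucose-6-phosphate dehydrogenase, the entry enzyme of the pentose phosphate pathway, rose from 78.7 to 629.2 TPM (2.98 ± 0.03). Its promoter fragments went from 174 to 362 and its entropy from 6.67 to 7.19. POS5, for the mitochondrial NADH kinase, rose from 41.8 to 140.1 TPM and SOL1 from 13.3 to 30.9 TPM, though SOL1 went under the threshold with a pseudocount of 5 TPM (0.97). The other 15 genes missed the threshold, among them GND1, for the next dehydrogenase of the pathway, at 1010 and 1318 TPM. Of 14 genes of calcineurin and its targets, 4 rose. Besides PHO89, these were ENA1, for a sodium pump, from 5.50 to 39.3 TPM (2.63 ± 0.06), the kinase gene CMK2 from 25.4 to 91.9 TPM and RCN2, for a calcineurin regulator, from 18.3 to 57.4 TPM. PMC1, for the vacuolar calcium pump, stood at 24.6 and 34.4 TPM. Of 37 autophagy genes, 5 rose, led by ATG41 from 46.9 to 842.7 TPM (4.14 ± 0.06), followed by ATG1, for the kinase that starts the process, from 6.01 to 24.7 TPM, ATG40, ATG8 and ATG39. ATG8, for the protein that coats the membrane, was weakly expressed, at 4.68 and 13.2 TPM, and with a pseudocount of 5 TPM it went under the threshold (0.91), as did ATG39, which leaves 3 of 37.

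The following genes outside the lists were picked after their values were seen. MBF1, for a coactivator of Gcn4, rose from 219.2 to 1439 TPM (2.71), and CHO2, for a phospholipid methyltransferase that uses S-adenosylmethionine, from 178.8 to 623.0 TPM (1.795). Permease genes for nitrogen compounds went both ways. GAP1, for an amino acid permease of broad range, fell from 644.9 to 321.1 TPM, DIP5, for one of acidic amino acids, from 177.1 to 83.4 TPM, and MEP2, for an ammonium permease, from 156.1 to 69.4 TPM. Relative to the median of all ORFs, GAP1 and DIP5 had -0.91 and -0.98, under the threshold. BAP3, for a permease of branched-chain amino acids, rose from 166.7 to 580.8 TPM (1.79). YMR173W-A, which has no RefSeq entry, had 20.9 and 235.1 TPM, close to the 20.3 and 235.6 TPM of DDR48 (YMR173W), whose systematic name is next to it. YDR154C, likewise without an entry, had 637.2 and 1433 TPM beside 668.5 and 1473 TPM for CPR1 (YDR155C). Whether the same reads were counted for both names was not tested. YNL276C, next in name to MET2 (YNL277W), went the other way, from 11.7 to 2.23 TPM.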
